A study of Mus musculus with 12 samples.

Results

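Oxidative phosphorylation uses 4 respiratory complexes to move electrons from NADH and succinate to oxygen and a further enzyme, the ATP synthase (complex V), to turn the resulting proton gradient into ATP. Complex I oxidises NADH, complex II oxidises succinate, and both pass electrons through ubiquinone to complex III. Complex III hands them to cytochrome c, a small soluble carrier, and complex IV (cytochrome c oxidase) passes them on to oxygen. Most subunits are encoded in the nucleus, and the mTOR kinase is known to act on mitochondrial genes through both their transcription and their translation. The subunits encoded in mitochondrial DNA are not described here.

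The genes described are the nuclear genes whose symbols begin with Nduf, Uqcr or Atp5, or Cox4 to Cox8 with a subunit letter or isoform, together with Sdha, Sdhb, Sdhc, Sdhd, Cyc1 and Cycs. Assembly factors, which help to build the complexes and are not part of them, were kept as a list of their own. In all 85 such genes were found on the array, by matching probe accessions to mouse symbols, with 35 in complex I, 4 in complex II, 9 in complex III, 1 for cytochrome c, 19 in complex IV and 17 in complex V. Ndufa4, first described in complex I, was placed in complex IV. Of the 85, 81 entered the test of 19669 genes, and each of these 81 was well above background on all 8 arrays of the main comparison. The 4 others were tissue isoforms of complex IV.

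The cells were NIH3T3, an established mouse embryonic fibroblast line, and total RNA was labelled with Cy3 and hybridised to 12 one-colour Agilent arrays. Cultures had received 2 µM PP242, 50 nM rapamycin or the solvent DMSO for 18 h, with 4 arrays per group. PP242 occupies the ATP site of the mTOR kinase and inhibits both of its complexes, mTORC1 and mTORC2, whereas rapamycin inhibits mTORC1 allosterically. The labels' treatment text gives millimolar PP242 where the sample characteristics give micromolar, which is used here. Per the series' design text the 4 samples of a condition were independent experiments. The line carries no labelled genetic change, and each compound was given at a single dose.

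On 4 arrays (PP242 1, PP242 4, rapamycin 3 and DMSO 2) the dim probes were raised: 77.9% to 97.9% of probes were well above background there, against 55.7% to 60.4% on the other 8. Values below come from these 8 arrays (PP242 2 and 3, rapamycin 1, 2 and 4, DMSO 1, 3 and 4) unless 12 arrays are named. The fibroblast label was borne out by its markers, 8 of 8 of which, collagens and vimentin included, were well above background on all 8 arrays. Of 4 epithelial markers, Krt8 was so on 3 arrays and Epcam, Krt18 and Cdh1 on 0, and of the leukocyte markers Cd3e was so on 8 arrays and Ptprc on 2. Each array value given below is a log2 signal relative to that array's 75th percentile, and each fold change is a difference of group means of these values on the log2 scale with its standard error. A gene is said to have risen or fallen where its limma p-value, adjusted over all genes tested, was under 0.05.

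The comparison of PP242 with DMSO asks what this kinase inhibitor, as given at a single dose, changes. With PP242, 6 of the 81 subunit genes rose and 9 fell, which is 18.5% called, against 26.1% of all genes tested. The median over the 81 was -0.13, beside -0.01 for all genes. It was -0.02 with quantile normalisation, -0.03 in the deposited log2 values, -0.04 with normexp background correction and -0.04 without PP242 3. Those that fell were cytochrome c itself, the cytochrome c1 gene Cyc1 and Uqcrb of complex III, Atp5g1, Atp5k and Atp5j of the ATP synthase, Ndufa5, Sdhd and the muscle isoform Cox6a2. Among those that rose were Ndufa6 and Ndufa7 of complex I, Sdha of complex II, and Cox7a2l and Cox7a1, which are counted with complex IV. The groups did not overlap for 44 of the 81 (54.3%), against 58.9% of all genes. Since RNA came from whole cultures, fewer cells of a kind and less RNA per cell cannot be told apart.

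By complex, the median fold change was -0.03 for complex I, -0.01 for complex II, -0.37 for complex III, -1.08 for cytochrome c, -0.22 for complex IV and -0.20 for complex V. All 15 called genes kept their sign in every alternative and with each array left out, but how many passed depended on the arrays. It was 6 without DMSO 1, 5 without DMSO 3, 5 without PP242 2, 3 without PP242 3, and 8 without rapamycin 1 or rapamycin 2. Without PP242 2 or 3 a single PP242 array remains, which is then assumed to vary like the other groups. With slide as a block, Cycs alone passed, and on 12 arrays Cox6a2 alone, so that a gene said below to keep or lose its call without an array is described over the 8 fits that each leave out 1 array.

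**Figure D1:**
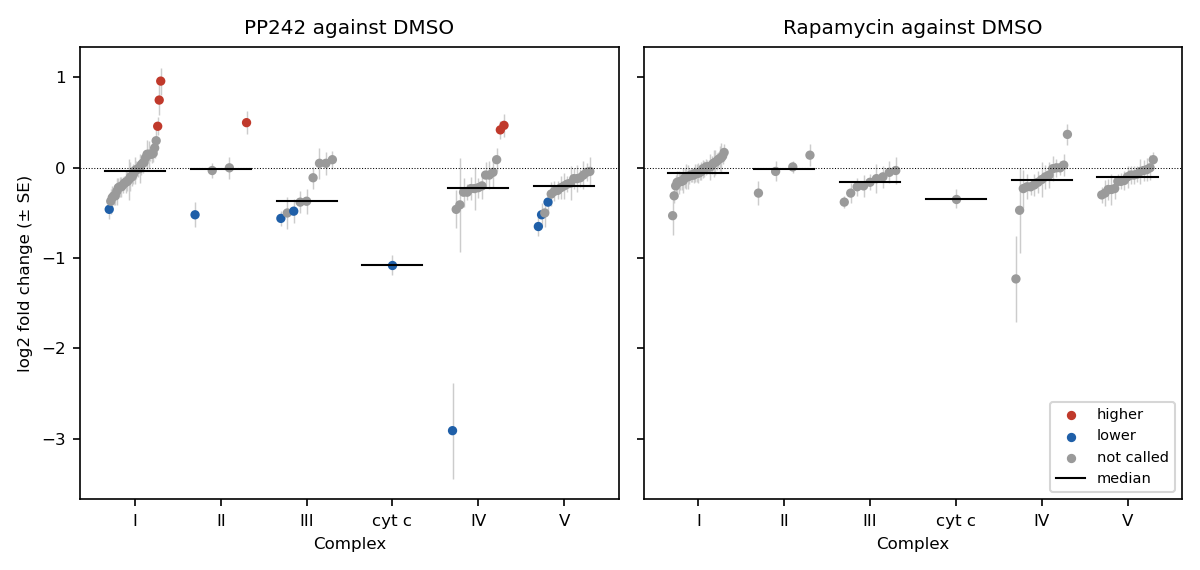
Log2 fold change of each of the 81 tested subunit genes (points, with standard error) by complex, for PP242 against DMSO on the left and rapamycin against DMSO on the right. Bars are medians, red and blue mark genes called higher and lower, and the called genes, 15 with PP242 and 0 with rapamycin, include cytochrome c at -1.08 with PP242.

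Cytochrome c, encoded by Cycs, carries electrons from complex III to complex IV and is released into the cytosol in apoptosis. Its signal was 4.63 and 4.44 on the PP242 arrays, 5.27, 5.34 and 5.20 on the rapamycin arrays, and 5.66, 5.67 and 5.51 on the DMSO arrays. Both PP242 arrays lay below all rapamycin arrays, and these lay below all DMSO arrays. With PP242 it fell by 1.08 ± 0.11 on the log2 scale, a 2.11-fold difference (limma adjusted p = 0.0013), and the 3 probes of the gene gave -1.08, -0.97 and -0.92. It passed in each of 8 fits that left out an array, with adjusted p from 0.00207 to 0.0196 by limma, and with slide as a block (-1.07, limma adjusted p = 0.0345). Within slide 1, where PP242 2 stood beside DMSO 1 and DMSO 4, the difference was -0.95. On 12 arrays it was -1.28 and did not pass (limma adjusted p = 0.286).

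The promoter of Cycs is shown because the gene had the lowest adjusted p of all 81 and because Nrf1, whose protein is a known activator of cytochrome c, is among the genes measured below. The 250 bases before the start site, from RefSeq on GRCm38.p6 (chr6:50566570-50566819, minus strand), are printed 5′ to 3′ with 2 motifs in capitals, a cAMP response element TGACGTCA that starts at -169 from the start site and a short NRF1 motif CGCATGCGC that starts at -61.
Cycs: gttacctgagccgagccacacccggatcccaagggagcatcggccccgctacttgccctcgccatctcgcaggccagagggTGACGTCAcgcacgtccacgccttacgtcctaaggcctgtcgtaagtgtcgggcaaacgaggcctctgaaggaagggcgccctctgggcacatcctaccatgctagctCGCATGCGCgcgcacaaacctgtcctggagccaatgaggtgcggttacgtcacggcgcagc
A longer NRF1 motif (GCGCA, then any base, then GCGC), searched on both strands from 250 bases before to 50 after the start, was in the promoters of 16 of the 69 subunit genes that have one in the RefSeq table (23.2%) and in 5.19% of 27025 genes. The short motif, which overlaps the longer one and was added after the first search, was in 8 of the 69 (11.6%) and in 1.95% of all genes. The ETS motif CCGGAAG, which GABP binds, was in 24.6% and 9.93%, the YY1 motif AAGATGG in 15.9% and 7.28%, and the cAMP response element in 5.8% and 2.03%. These matches describe letters in a window, and binding to them was not measured. The 27025 genes were all genes with a promoter in the RefSeq table. They were not limited to genes expressed in these cells, so the 2 sets differ in more than their function.

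The longer NRF1 motif was in 3 of 6 promoters of genes that fell with PP242, 2 of 5 of genes that rose, and 11 of 56 of genes that were not called. It was therefore found among genes of both directions, as these 4 stretches of at most 60 bases before the start site show, with the motif in capitals.
Atp5k (fell; chr5:108434415-108434474, minus strand): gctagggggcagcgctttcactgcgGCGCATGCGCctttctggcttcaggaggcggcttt
Ndufa5 (fell; chr6:24527691-24527741, minus strand): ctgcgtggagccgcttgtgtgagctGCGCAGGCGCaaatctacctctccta
Sdhd (fell; chr9:50603894-50603953, minus strand): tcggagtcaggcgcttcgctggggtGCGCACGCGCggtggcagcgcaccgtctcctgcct
Sdha (rose; chr13:74350304-74350363, minus strand): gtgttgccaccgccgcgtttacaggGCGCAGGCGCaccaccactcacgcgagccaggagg
By complex, the longer motif was in 6 of 31 promoters of complex I, 2 of 3 of complex II, 1 of 5 of complex III, 1 of 14 of complex IV and 6 of 15 of complex V. It was in 0 of 1 for cytochrome c: the Cycs promoter holds the short NRF1 motif and lacks the longer one.

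In complex I, 3 of 35 genes rose with PP242 and 1 fell (11.4%, against 26.1% of all genes), and the median of its 7 core genes was 0.06 against -0.09 for its 28 accessory genes. Ndufa6, an accessory subunit, had 5.45 and 5.49 on the PP242 arrays, 4.73, 4.49 and 4.34 on the rapamycin arrays, and 4.66, 4.55 and 4.32 on the DMSO arrays. Both PP242 arrays stood above all others, and the rapamycin and DMSO arrays overlapped. It rose by 0.96 ± 0.15, which is 1.94-fold (limma adjusted p = 0.00622), and missed the threshold without PP242 3 (0.94, limma adjusted p = 0.0564), with slide as a block (0.94, 0.0672) and on 12 arrays (0.63, 0.688).

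Ndufa7, another accessory subunit, had 6.20 and 5.96 with PP242, 5.80, 5.70 and 5.75 with rapamycin, and 5.63, 5.56 and 5.66 with DMSO. The 3 groups did not overlap, with PP242 highest and DMSO lowest. It rose by 0.46 ± 0.10 (limma adjusted p = 0.0212) and lost its call without DMSO 1 (limma adjusted p = 0.0575), DMSO 3 (0.068) or PP242 2 (0.15).

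Ndufa5, an accessory subunit, was the member of complex I that fell. It had 5.59 and 5.42 with PP242, 5.75, 5.78 and 5.90 with rapamycin, and 6.08, 5.92 and 5.88 with DMSO, so that PP242 was lowest and the other groups overlapped. It fell by 0.46 ± 0.11 (limma adjusted p = 0.0261), a call kept only when DMSO 4 or rapamycin 4 was the array left out, with an adjusted p by limma of up to 0.184 otherwise. The 2 members with the brightest signal that were not called were Ndufb8, of the membrane arm, and Ndufa13, also known as GRIM-19. Ndufb8 had 6.53 and 6.31 with PP242, 6.61, 6.64 and 6.41 with rapamycin, and 6.90, 6.74 and 6.62 with DMSO, a difference of -0.33 for PP242 (limma adjusted p = 0.121). Ndufa13 had 6.70 and 6.52 with PP242, 6.60, 6.75 and 6.67 with rapamycin, and 6.80, 6.60 and 6.65 with DMSO, and differed by -0.07. Over the 31 genes of complex I that were not called the difference lay between -0.37 (Ndufb7) and 0.30 (Ndufv3). For Ndufv3, an accessory subunit of the NADH-oxidising tip, the other 2 probes gave 0.94 and 0.89, so its value depends on the probe. The same holds for Ndufab1, whose other probe gave -0.69 beside -0.15 for the brightest.

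Complex II has 4 subunits, all measured, and its genes moved in both directions. With PP242, 1 rose and 1 fell (50% called, against 26.1% of all genes). Sdha, the flavoprotein that oxidises succinate, had 2.13 and 2.33 on the PP242 arrays, 1.94, 2.00 and 1.67 on the rapamycin arrays, and 1.68, 1.79 and 1.74 on the DMSO arrays. It rose by 0.50 ± 0.13 with PP242 (limma adjusted p = 0.0355), while its second probe gave 0.19. Sdhd, a membrane anchor, had 4.72 and 4.62 with PP242, 4.98, 4.93 and 4.82 with rapamycin, and 5.29, 5.34 and 4.95 with DMSO, and fell by 0.52 ± 0.14 (limma adjusted p = 0.0379). For both genes the PP242 arrays did not overlap the DMSO arrays.

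The other members of complex II stayed close to DMSO. The iron-sulfur subunit Sdhb had 3.63 and 3.57 with PP242, 3.61, 3.65 and 3.66 with rapamycin, and 3.64, 3.60 and 3.66 with DMSO, a PP242 difference of -0.03 with a 95% interval from -0.22 to 0.16. The anchor Sdhc had 4.30 and 4.39 with PP242, 4.32, 4.41 and 4.17 with rapamycin, and 4.40, 4.43 and 4.20 with DMSO, a difference of 0.00 with an interval from -0.28 to 0.29. The Sdha call was kept only in the fit without rapamycin 4, with an adjusted p by limma of up to 0.221 when another array was left out. The Sdhd call was kept only without DMSO 4 or rapamycin 4, with up to 0.204 otherwise.

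In complex III, 2 of 9 genes fell and none rose (22.2% called, against 26.1% of all genes). Cyc1, cytochrome c1, the heme protein that passes electrons to cytochrome c, had 5.63 and 5.57 with PP242, 5.76, 5.78 and 5.79 with rapamycin, and 6.20, 6.10 and 6.18 with DMSO. As for Cycs, the 3 groups did not overlap and rapamycin lay between the others. It fell by 0.56 ± 0.08, a 1.47-fold difference (limma adjusted p = 0.00506), and missed the threshold without PP242 3 (-0.53, limma adjusted p = 0.0573), with slide as a block (-0.56, 0.0657) and on 12 arrays (-0.77, 0.606). Uqcrb, a small subunit, had 3.94 and 3.67 with PP242, 4.11, 4.04 and 4.09 with rapamycin, and 4.38, 4.35 and 4.11 with DMSO. It fell by 0.48 ± 0.13 (limma adjusted p = 0.0375), kept only without DMSO 4 or rapamycin 4, with an adjusted p by limma of up to 0.239 otherwise. The hinge protein gene Uqcrh was not called, with 7.36 and 7.13 on PP242 arrays, 7.11, 7.19 and 6.98 on rapamycin arrays, and 7.35, 7.16 and 7.07 on DMSO arrays, and a difference of 0.05. Uqcrq, with 6.44 and 6.12 on PP242 arrays, 6.72, 6.85 and 6.44 on rapamycin arrays, and 6.98, 6.77 and 6.61 on DMSO arrays, differed by -0.50 and did not pass (limma adjusted p = 0.0878). The Rieske iron-sulfur protein gene Uqcrfs1 differed by -0.38 (limma adjusted p = 0.0683), and Uqcrc1 and Uqcrc2, the core proteins, by -0.11 and 0.09.

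Complex IV has common subunits and isoforms that are typical of certain tissues. Of its 15 tested genes, 2 rose with PP242 and 1 fell (20% called, against 26.1% of all genes). The 12 tested genes without a tissue-bound isoform had a median of -0.21, and 1 of them, Cox7a2l, was called (8.33%). Cox7a2l encodes a subunit 7a-like protein that joins complexes III and IV into supercomplexes. Its signal was 4.68 and 4.59 with PP242, 4.66, 4.59 and 4.36 with rapamycin, and 4.27, 4.23 and 4.00 with DMSO, so that both treated groups lay above DMSO. It rose by 0.47 ± 0.13 with PP242 (limma adjusted p = 0.045), a call kept only without rapamycin 4 and otherwise at an adjusted p by limma of up to 0.21. Cox6a1 and Cox4i1, the common isoforms of subunits 6a and 4, were not called. Cox6a1 had 7.74 and 7.40 with PP242, 7.62, 7.73 and 7.48 with rapamycin, and 7.87, 7.75 and 7.69 with DMSO, a difference of -0.20. Cox4i1 had 7.29 and 7.16 with PP242, 7.15, 7.28 and 7.04 with rapamycin, and 7.31, 7.09 and 6.99 with DMSO, and differed by 0.09.

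Of 7 tissue isoforms of complex IV on the array, 3 were measured. Cox6a2, the heart and muscle isoform of subunit 6a, had the widest change of all 81 genes. It had -4.13 and -4.79 with PP242, -2.65, -2.80 and -2.90 with rapamycin, and -2.05, -2.19 and -0.43 with DMSO. The groups did not overlap, the rapamycin arrays lay between the others, and DMSO 4 stood well above DMSO 1 and DMSO 3. It fell by 2.91 ± 0.53 with PP242, a 7.49-fold difference (limma adjusted p = 0.0101), with -2.34 without DMSO 4 (limma adjusted p = 0.00294). It was not called without PP242 3 (-2.57, limma adjusted p = 0.0816) and was the member called on 12 arrays (-2.21 ± 0.45, limma adjusted p = 0.0448). Its size depended on the processing, from -1.30 in the deposited log2 values to -3.19 with quantile normalisation of 12 arrays. The signal of Cox6a2 was dim. On PP242 2 and 3 it lay below that of Prm1, a testis germ cell marker (-3.82 and -4.06).

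Cox7a1, the heart and muscle isoform of subunit 7a, went the other way. Its signal was -2.40 and -2.52 with PP242, -3.18, -2.95 and -3.15 with rapamycin, and -2.88, -2.90 and -2.86 with DMSO. PP242 was highest and rapamycin lowest, with no overlap. It rose by 0.42 ± 0.10 with PP242 (limma adjusted p = 0.029), kept without DMSO 4, rapamycin 2 or rapamycin 4, with an adjusted p by limma of up to 0.179 otherwise. Cox7a1 was dim as well. Over the 17 alternatives besides leaving out arrays its difference ran from 0.10 to 0.71, and it was called in 4 of them. Cox6b2, the testis isoform of subunit 6b, had -2.03 and -3.34 with PP242, -2.14, -3.36 and -2.73 with rapamycin, and -1.91, -2.84 and -2.08 with DMSO, overlapping groups that were not called. Cox7b2 and Cox8b were well above background on 0 of 8 arrays, Cox4i2 on 1 PP242 array and Cox8c on 1 rapamycin array.

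Markers of striated muscle were looked at beside Cox6a2 and Cox7a1. Of 9 such markers, the regulators Myod1 and Myog and the structural genes Myh4, Myh6 and Actn2 were well above background on 0 of 8 arrays, Myh1 and Myh7 on 2, Ckm on 3 and Des on 5. Their summed level ran from 0.0677 to 0.0818 with PP242, 0.0488 to 0.0746 with rapamycin and 0.0528 to 0.105 with DMSO, in units of the 75th percentile, against 677 to 913, 753 to 816 and 849 to 881 for the fibroblast markers. Of 7 testis germ cell markers, Ddx4, Dazl and Pgk2 were well above background on 0 arrays, Ldhc on 1, Prm2 on 7, and Prm1 and Tnp1 on 8.

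In complex V, the ATP synthase, 3 of 17 genes fell (17.6%, against 13.3% of all genes called lower and 26.1% called in either direction). The fold changes of all 17 were negative, from -0.65 to -0.04, beside 10047 of 19669 genes tested. This common sign depended on the scaling: 12 of 17 were negative after quantile normalisation, with a median of -0.07, and 13 of 17 in the deposited log2 table, with a median of -0.11. The median was -0.07 without PP242 3 and -0.35 without PP242 2. It was -0.17 for the 5 genes of the catalytic F1 head, -0.24 for 4 stalk genes and -0.27 for 8 genes of the membrane part Fo.

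Atp5g1, 1 of 3 genes that encode the c subunit of the rotor ring, had 4.67 and 4.70 with PP242, 4.98, 5.07 and 5.09 with rapamycin, and 5.44, 5.26 and 5.32 with DMSO. The groups did not overlap and rapamycin again lay between the others. It fell by 0.65 ± 0.10 with PP242, a 1.57-fold difference (limma adjusted p = 0.00461), and passed in each of the 8 fits that left out an array. The same protein is encoded by Atp5g3 and Atp5g2, which were not called. Atp5g3 had 6.54 and 6.28 with PP242, 6.62, 6.61 and 6.65 with rapamycin, and 7.05, 7.03 and 6.65 with DMSO, a difference of -0.50 (limma adjusted p = 0.0575). Atp5g2 differed by -0.04, and its probes disagreed in sign.

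Atp5k, subunit e of the membrane part, had 4.81 and 4.57 with PP242, 5.08, 4.98 and 4.87 with rapamycin, and 5.35, 5.16 and 5.11 with DMSO, in 3 groups without overlap. It fell by 0.52 ± 0.13 (limma adjusted p = 0.0284), kept without DMSO 4, rapamycin 1 or rapamycin 4 and otherwise at an adjusted p by limma of up to 0.196. Atp5j, subunit F6 of the stalk, had 5.78 and 5.71 with PP242, 6.05, 6.16 and 5.94 with rapamycin, and 6.19, 6.20 and 6.00 with DMSO. Only its PP242 arrays stood apart. It fell by 0.38 ± 0.11 (limma adjusted p = 0.0476), kept only without DMSO 4 or rapamycin 4, with an adjusted p by limma of up to 0.237 otherwise. The catalytic beta subunit gene Atp5b was not called, with 7.49 and 6.91 on PP242 arrays, 7.13, 7.20 and 7.04 on rapamycin arrays, and 7.49, 7.41 and 7.20 on DMSO arrays. It differed by -0.17 with an interval from -0.62 to 0.28, and its other 2 probes gave 0.12 and 0.13.

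**Figure D2:**
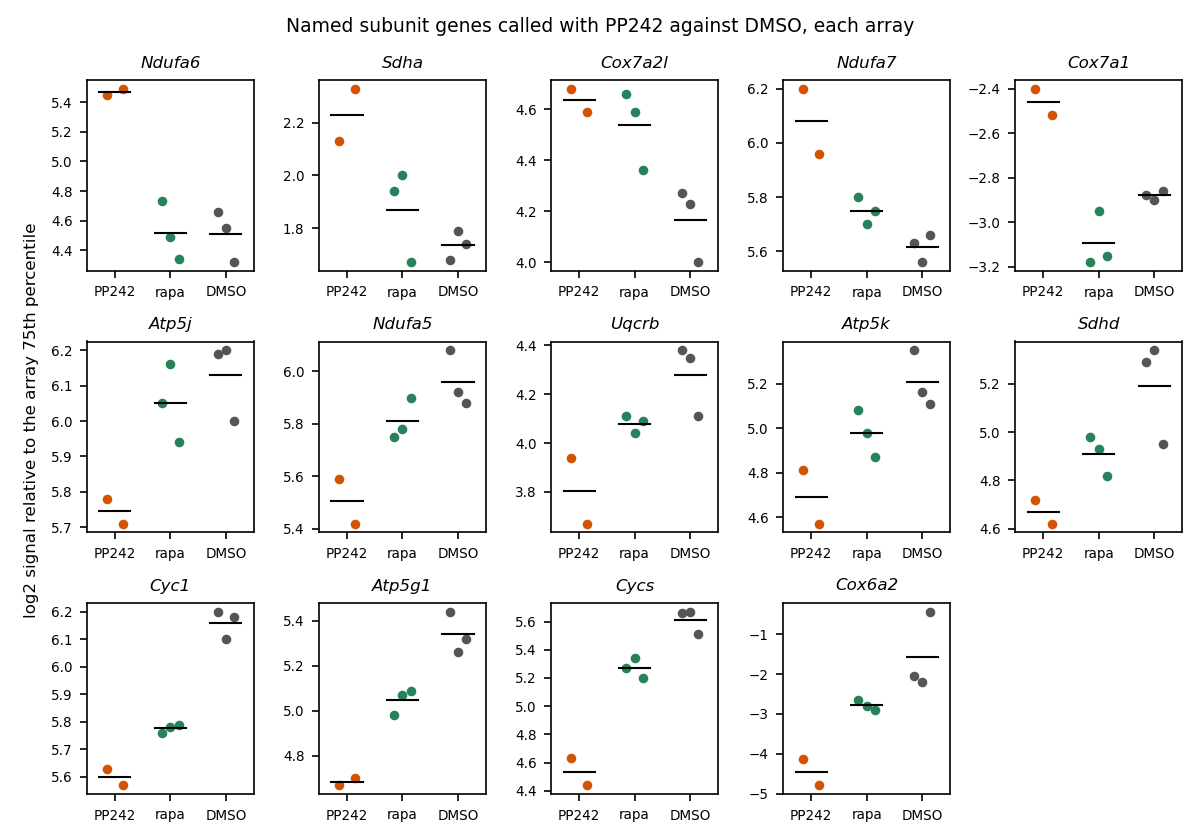
Log2 signal relative to the array's 75th percentile for 14 of the 15 subunit genes called with PP242 against DMSO. Each point is 1 array (2 PP242, 3 rapamycin, 3 DMSO), bars are group means, and each panel has its own scale. The PP242 points lie apart from the DMSO points in every panel. The rapamycin points lie between them in Cycs, Cyc1, Atp5g1, Atp5k and Cox6a2, which fell, and in Ndufa7, which rose.

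Rapamycin was compared with DMSO to ask what the allosteric inhibitor of mTORC1 changes. Of the 81 subunit genes 0 were called by limma, against 0.0559% of all genes (0.0356% higher and 0.0203% lower, 11 of 19669). At an unadjusted limma p under 0.05 there were 8 of the 81 (9.88%), against 13.2% of all genes. The median over the 81 was -0.08, with 63 negative and 18 positive, beside -0.02 for all genes, of which 10314 of 19669 were negative. By complex it was -0.06 for complex I, -0.01 for complex II, -0.16 for complex III, -0.34 for cytochrome c, -0.13 for complex IV and -0.10 for complex V. The groups did not overlap for 17 of the 81 (21%), against 18.7% of all genes.

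Among single genes, Cyc1 differed by -0.38 ± 0.07 with rapamycin (limma adjusted p = 0.144), Cycs by -0.34 ± 0.10 (0.241), Atp5g1 by -0.30 ± 0.09 (0.247) and Cox6a2 by -1.23 ± 0.48 (0.353). For each of these 4 the rapamycin arrays lay below all DMSO arrays. Ndufa9 and Ndufs1, named after their values were seen, differed by -0.31 ± 0.08 (limma adjusted p = 0.222) and -0.53 ± 0.21 (0.353). Their rapamycin arrays lay below all DMSO and all PP242 arrays, so that rapamycin did not lie between the other groups there. The 95% interval of the rapamycin difference was -0.58 to -0.11 for Cycs and -0.56 to -0.20 for Cyc1. For 78 of 81 genes the interval lay within a 2-fold change in either direction, and Cox6a2, Cox6b2 and Ndufs1 were the exceptions. These intervals are not adjusted for the number of genes. Within slides 1 and 3, which hold rapamycin and DMSO arrays of the main set, Cycs differed by -0.32 and -0.47 and Cyc1 by -0.43 and -0.31. Because both inhibitors were set against the same DMSO arrays, their fold changes are not independent of each other.

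The inhibitors were also set against each other, at the single dose of each, so that this compares the treatments as given. By limma, 4 of 81 genes differed (4.94%), against 14.0% of all genes, and the groups did not overlap for 41 of the 81 (50.6%), against 53.6% of all genes. Ndufa6 was higher with PP242 than with rapamycin by 0.95 ± 0.15 (limma adjusted p = 0.0118) and Cox7a1 by 0.63 ± 0.10 (0.0127). Cycs was lower with PP242 by 0.73 on the log2 scale (-0.73 ± 0.11, limma adjusted p = 0.00872). Cyc1 and Atp5g1 were not called, at -0.18 ± 0.08 with a limma adjusted p of 0.227 and -0.36 ± 0.10 with 0.0548. The medians were 0.04 for complex I, 0.00 for complex II, -0.10 for complex III, -0.04 for complex IV and -0.12 for complex V. The 4 calls had the same sign within slide 1 and within slide 2, where Cycs differed by -0.63 and -0.91. None of the 4 passed with slide as a block, on 12 arrays, or without PP242 2 or PP242 3, and without these the adjusted p for Cycs by limma was 0.0507 and 0.0927.

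All 12 arrays are shown by complex because the raised arrays include members of each group. As a median over the genes of a complex, relative to the mean of DMSO 1, 3 and 4, rapamycin 3 lay between -2.71 and -2.01 for every complex, and PP242 4 was below PP242 2 and 3 throughout. On the 8 arrays of the main set, the complex III median was -0.28 and -0.43 with PP242, -0.17, -0.14 and -0.24 with rapamycin, and 0.12, 0.00 and -0.14 with DMSO, so that PP242 did not overlap DMSO. The complex I median was -0.01 and -0.13 with PP242, -0.04, 0.00 and -0.12 with rapamycin, and 0.08, 0.00 and -0.09 with DMSO, in overlapping groups. PP242 and DMSO overlapped for complex IV too, at -0.01 and -0.33 with PP242 and 0.10, -0.02 and -0.14 with DMSO. The same held for complex V, at -0.07 and -0.35 with PP242 and 0.10, -0.01 and -0.08 with DMSO. The signal range of the array moves with these values, and its part in them was not tested.

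**Figure D3:**
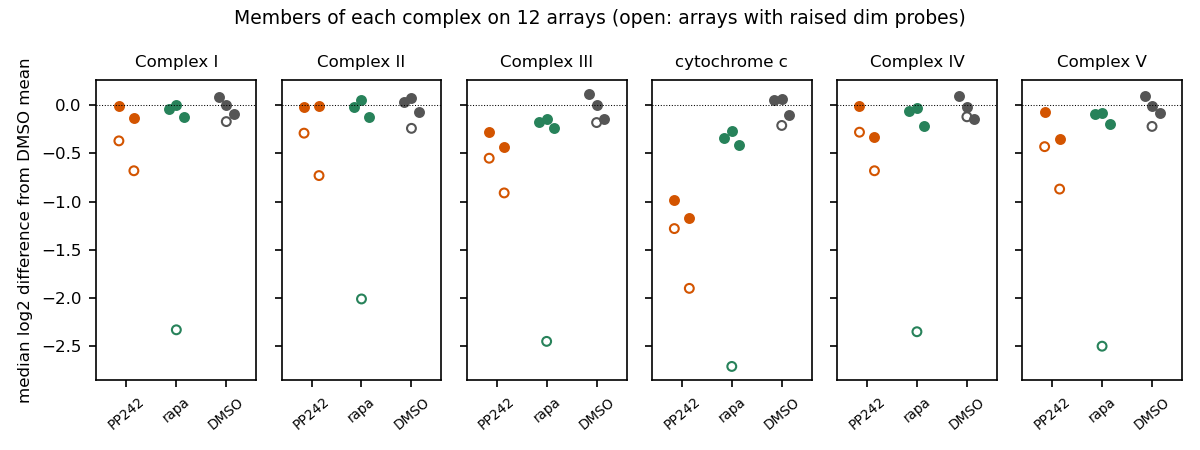
Median over the genes of each complex of the log2 difference from the mean of DMSO arrays 1, 3 and 4, on each of 12 arrays. Filled points are the 8 arrays of the main comparison and open points are the 4 with raised dim probes, where rapamycin 3 reaches -2.71 for cytochrome c.

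Assembly factors put the complexes together without being part of them, and were described as a list of 51 genes, of which 45 were on the array and 44 tested. With PP242, 8 rose and 7 fell (34.1%, beside 26.1% of all genes), with a median of -0.10. Ndufaf3, an assembly factor of complex I, had -0.72 and -0.64 with PP242, -1.33, -1.28 and -1.57 with rapamycin, and -2.12, -2.10 and -1.84 with DMSO. The 3 groups did not overlap, with PP242 highest. It rose by 1.34 ± 0.14, which is 2.53-fold (limma adjusted p = 0.00136), and also passed on 12 arrays (1.24, limma adjusted p = 0.0157) and with slide as a block (1.24, limma adjusted p = 0.0267). It was 0.72 in the deposited log2 values, and did not pass in 3 of 17 alternatives (limma adjusted p of up to 0.676), which were quantile normalisation, the slide block and the replicate block, each on 12 arrays.

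Coa4, a factor for complex IV, had 1.07 and 1.19 with PP242, 0.73, 0.66 and 0.49 with rapamycin, and 0.29, 0.25 and 0.23 with DMSO, and rose by 0.87 ± 0.10 (limma adjusted p = 0.00231). Bcs1l, which inserts the Rieske protein into complex III, had 2.25 and 2.37 with PP242, 1.66, 1.74 and 1.83 with rapamycin, and 1.52, 1.58 and 1.68 with DMSO, and rose by 0.72 ± 0.10 (limma adjusted p = 0.00406). Both genes passed in each of 8 fits without an array. Coa4 also passed with slide as a block (0.82, limma adjusted p = 0.0418), and Bcs1l did not (0.71, limma adjusted p = 0.0558). On 12 arrays neither passed (limma adjusted p = 0.542 for Coa4 and 0.33 for Bcs1l). Against rapamycin, 4 factors were higher with PP242 and 1 was lower (11.4%, against 14.0% of all genes). Among them Surf1, a complex IV factor, had the smallest adjusted p by limma, at 0.69 ± 0.10 (0.00978), and did not pass without PP242 2 (0.0778), without PP242 3 (0.101) or with slide as a block (0.0816). Surf1 had 3.12 and 3.20 with PP242, 2.57, 2.52 and 2.34 with rapamycin, and 2.50, 2.43 and 2.38 with DMSO. Uqcc2 and Coa3, the brightest factors not called, differed from DMSO by -0.30 and 0.14 with PP242. Hccs, which attaches heme to cytochromes c and c1, is named here after its values were seen: it had 1.32 and 1.44 with PP242, 1.82, 1.93 and 1.67 with rapamycin, and 1.98, 2.06 and 1.75 with DMSO, and fell by 0.55 ± 0.13 with PP242 (limma adjusted p = 0.0258), a call kept only without DMSO 4, rapamycin 2 or rapamycin 4 (up to 0.152 otherwise) and lost with slide as a block (limma adjusted p = 0.099).

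Of 19 tested regulators of mitochondrial biogenesis, 3 fell and 0 rose with PP242 (15.8%, against 26.1% of all genes), with a median of -0.22. Nrf1, the transcription factor whose motif is printed above, had -1.96 and -1.90 with PP242, -1.27, -1.23 and -0.90 with rapamycin, and -1.05, -0.96 and -0.57 with DMSO. The PP242 arrays lay below all others and the rapamycin and DMSO arrays overlapped. It fell by 1.07 ± 0.18, a 2.10-fold difference (limma adjusted p = 0.00798) and lost its call without PP242 2 (limma adjusted p = 0.0625), without PP242 3 (0.0589) and with slide as a block (-1.02, limma adjusted p = 0.083). Against rapamycin it was lower with PP242 as well (-0.80, limma adjusted p = 0.0364), a call kept only without DMSO 4 (up to 0.19 otherwise). Pprc1, a coactivator of the PGC-1 family, had 2.82 and 2.77 with PP242, 3.09, 3.08 and 3.32 with rapamycin, and 3.24, 3.19 and 3.54 with DMSO, and fell by 0.53 ± 0.14 (limma adjusted p = 0.0371). Tfam, which packages and transcribes mitochondrial DNA, had 2.78 and 2.83 with PP242, 3.09, 2.98 and 3.18 with rapamycin, and 3.24, 3.07 and 3.32 with DMSO, and fell by 0.40 ± 0.11 (limma adjusted p = 0.0438). The Pprc1 call was kept only without DMSO 4 or rapamycin 4, and the Tfam call only without DMSO 3 or rapamycin 4, with adjusted p by limma of up to 0.186 and 0.201 in the other fits without an array. Both were lost with slide as a block (Pprc1 at 0.202 and Tfam at 0.207) and with the replicate block (0.0599 and 0.129). Ssbp1, which binds single-stranded mitochondrial DNA, and Polrmt, the mitochondrial RNA polymerase, were not called, at -0.22 and -0.28.

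In the TCA cycle with pyruvate dehydrogenase, 2 of 19 genes fell and 0 rose with PP242, a smaller share than the 26.1% called among all genes, with a median of -0.13. Pdhx, a structural subunit of pyruvate dehydrogenase, had 0.99 and 0.93 with PP242, 1.20, 1.20 and 1.35 with rapamycin, and 1.63, 1.55 and 1.59 with DMSO, 3 groups without overlap. It fell by 0.63 ± 0.09 (limma adjusted p = 0.00488) and missed the threshold only without PP242 3 (limma adjusted p = 0.0535) among the fits without an array, and also with slide as a block (0.0676) and on 12 arrays (0.549). Ogdh, of the 2-oxoglutarate dehydrogenase complex, had -0.47 and -0.40 with PP242, -0.17, -0.07 and -0.37 with rapamycin, and 0.14, 0.06 and -0.12 with DMSO, and fell by 0.46 ± 0.13 (limma adjusted p = 0.0442), kept only without DMSO 4 or rapamycin 4 among those fits, with up to 0.199 otherwise, and lost with slide as a block (0.123). Malate dehydrogenase Mdh2 and citrate synthase Cs, which were not called, differed by -0.12 and -0.13. With rapamycin, 0 genes of these 3 lists were called by limma.

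**Figure D4:**
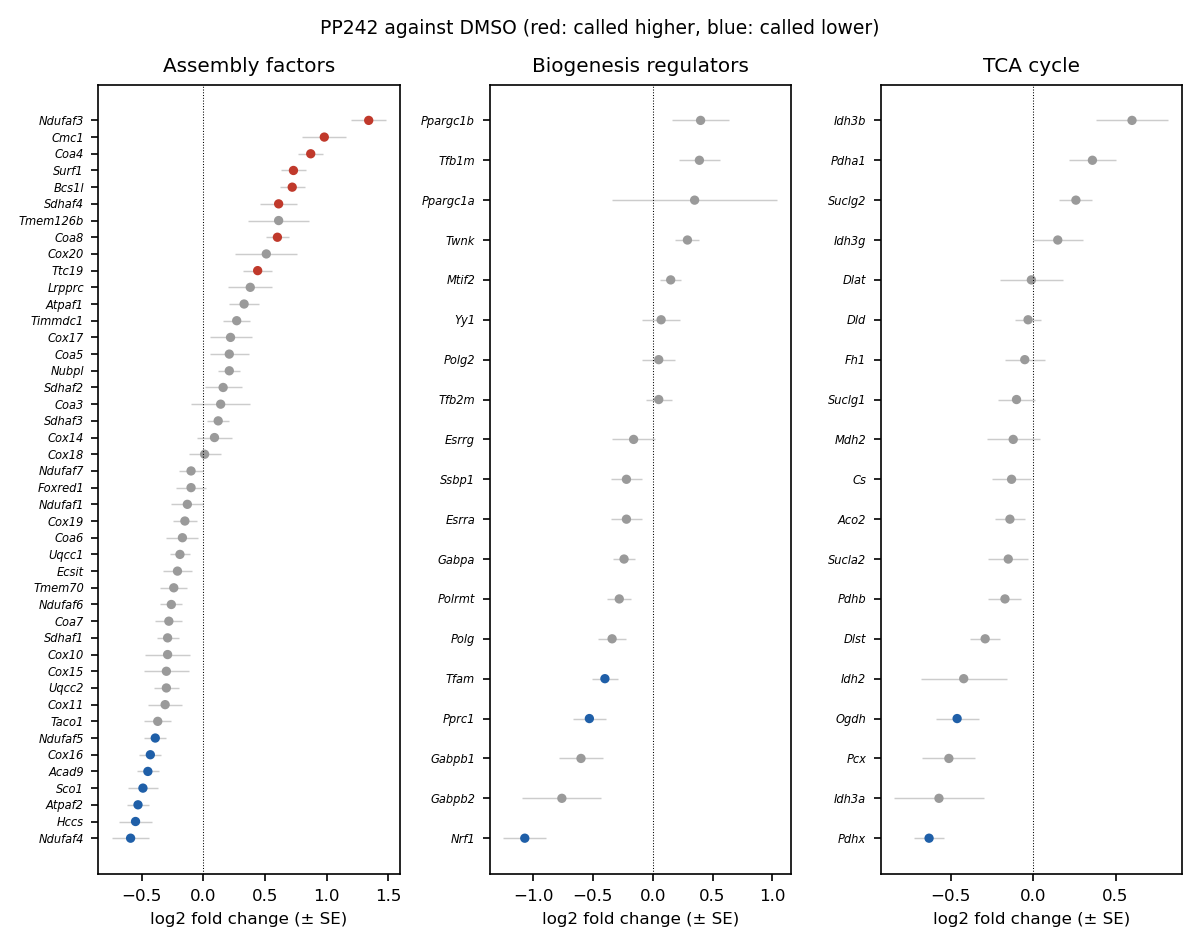
Log2 fold change of PP242 against DMSO with standard error for the tested assembly factors (44), biogenesis regulators (19) and TCA cycle genes (19). Red and blue mark genes called higher and lower: assembly factors run from -0.59 to 1.34 with calls on both sides, and the calls in the other lists are all lower.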

How the data were processed

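The deposited files give, for 45018 spots per array, a linear intensity from which Agilent Feature Extraction had subtracted the background without scaling the arrays to each other, per the file headers (version 10.5.1.1 there and 10.1 in the submitters' processing notes). The deposited value table holds log2 values of the same arrays with column medians of 8.54 to 8.56. Its tool is not stated in the sources, and the table served as an alternative only. From the intensity, log2 values minus each array's 75th percentile were computed, control spots and outlier-marked spots (1.52%) were left out, probes had to be well above background on 2 or more of 8 arrays, and the brightest probe stood for its gene. For Ndufb4 and Ndufc2 a marked spot left 2 rapamycin values. Limma 3.58.1 in R 4.3.3 (lmFit and eBayes, two-sided, Benjamini-Hochberg over all 19669 genes, threshold 0.05) fitted the 3 groups together on 8 arrays whose 75th percentile was over 100 times the 25th, and was checked on simulated data. No saturated spot was found. The number of arrays limits the precision.

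The members, lists, array choice and named genes were chosen with earlier results of these data known. Named are, per complex, up to 4 called and 2 bright uncalled genes, Cycs, Cyc1, the complex II genes and tissue isoforms, and per list up to 3 called genes a comparison and 2 uncalled. Alternatives were other array sets, scalings, background corrections, filters, probe rules, blocks and variance models, and leaving out each array. Promoters are RefSeq's on GRCm38.p6. Of the called subunit genes, 1 is counted but not reported here by name. Figures were drawn with Python and matplotlib.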

Additional observations from a re-analysis of the deposited data

Results flagged for a closer look

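Rapamycin 3 stood far from the other 3 rapamycin arrays in every complex. Its median difference from the mean of DMSO 1, 3 and 4 was -2.33 for complex I, -2.01 for complex II, -2.45 for complex III, -2.71 for cytochrome c, -2.35 for complex IV and -2.50 for complex V. In each case its gap to the nearest rapamycin array, divided by the range of the 4 arrays, passed Dixon's critical value, which chance exceeds in about 1 of 20 groups, and the 6 values share 1 array and are not independent. This array had 97.9% of its probes well above background and a 75th percentile 7.12 times as high as the 25th. It was left out of the main comparison for that ratio and is included in the 12-array alternatives.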

How the results depend on the processing

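Of the 17 alternatives besides leaving out arrays, the count of subunit genes called with PP242 against DMSO (15) was 1 on 12 arrays, 34 with array weights on 12, 1 with quantile normalisation of 12, and 0 on 12 with slide or with replicate block. On 8 arrays it was 8 with median centring, 6 with no filter, 1 with slide as a block, 8 with the replicate block and 8 when only the compared groups were fitted, and with an array left out 3 to 17. For PP242 against rapamycin (4) it was 0 on 12 arrays, also with quantile normalisation or either block, 28 with weights, 0 with the slide block on 8, 1 with the replicate block on 8 and 0 to 5 with an array left out. For rapamycin against DMSO (0) it was 9 with weights and 0 otherwise. Deviations of same-numbered arrays from their group means correlated at 0.44, -0.24, 0.11 and 0.62 for numbers 1 to 4. Numbers 2 and 3 each involve 1 of only 2 PP242 arrays, whose deviations mirror each other, so these values cannot decide on pairing. Numbers 1 and 4 set DMSO beside rapamycin, and both were positive. No label ties a number to a shared batch, so the main fit did not pair the arrays. Whether the numbers mark a shared batch was not settled. Fewer genes passed with slide as a block, a fit that leaves fewer residual degrees of freedom, and the cause was not tested. In the main set slide 2 held PP242 3 and rapamycin 2 but no DMSO array. Slide 3 held DMSO 3 and rapamycin 4 but no PP242 array. Slide and treatment were thus partly confounded in PP242 against DMSO and cannot be fully told apart. The same holds for replicate number, since the main set held PP242 2 and 3 but DMSO 1, 3 and 4. Cox7a1 in PP242 against rapamycin reversed, to -0.15, under quantile normalisation of 12 arrays.

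Medians are given in the order complex I, II, III, cytochrome c, IV, V, leaving out those within the replicate spread. On 12 arrays, and the same with the replicate block, they were -0.24, -0.21, -0.53, -1.28 and, for V, -0.34 for PP242 against DMSO, then -0.55, -0.46, -0.68, -0.88, -0.63 and -0.64 for rapamycin against DMSO, and 0.33, 0.25, 0.21, -0.40, 0.29 and 0.26 for PP242 against rapamycin. With slide as a block on 12 they were -0.21, -0.16, -1.22 (cytochrome c) and -0.31 (V), then -0.41, -0.34, -0.53, -0.74, -0.48 and -0.49, and 0.25, 0.17, 0.16, -0.48, 0.25 and 0.15. Quantile normalisation of 12 gave -0.27 (III), -0.07 (IV) and -0.07 (V) with PP242 and -0.15 (II) with rapamycin. On 8 arrays with PP242, quantile normalisation gave 0.09 (II), -0.24 (III), -0.97 (cytochrome c) and -0.07 (V), normexp 0.11 (II), -0.20 (III) and -0.10 (V), and the deposited values gave 0.09 (II), -0.22 (III), -0.97 (cytochrome c) and -0.11 (V). With rapamycin, normexp gave 0.08 and the deposited values gave 0.07 (II), and median centring -0.15 (I), -0.12 (II) and -0.20 (V). The complex II medians near 0 thus had no settled sign. The median of all genes for the 3 comparisons was 0.14, -0.05 and 0.18 on 12 arrays.

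With an array left out, medians ran for PP242 against DMSO from -0.13 to 0.02 (I), -0.04 to 0.00 (II), -0.44 to -0.28 (III), -1.17 to -0.98 (cytochrome c), -0.33 to -0.01 (IV) and -0.35 to -0.07 (V), and for PP242 against rapamycin from -0.02 to 0.07 (I), -0.03 to 0.03 (II), -0.16 to -0.04 (III), -0.83 to -0.64 (cytochrome c), -0.21 to 0.13 (IV) and -0.23 to -0.03 (V). For rapamycin against DMSO they ran from -0.07 to -0.02 (I), -0.05 to 0.01 (II), -0.20 to -0.13 (III), -0.39 to -0.31 (cytochrome c), -0.21 to -0.08 (IV) and -0.16 to -0.06 (V).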
